A study of Mus musculus with 8 samples.

Results

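Chemokines are small secreted proteins that guide the movement of white blood cells, and the genes described here are those for the chemokines and for the receptors that bind them, in hearts of fasted and satiated mice. A gene was a member if its symbol began with Ccl, Cxcl, Ccr, Cxcr or Ackr followed by a digit, or if it was Cx3cl1, Cx3cr1, Xcl1 or Xcr1. The rule uses symbols and no measured value, but it was chosen with earlier results of these data known. Of 66 genes with such a symbol in RefSeq considered here, 56 had at least 1 matched probe, 34 for ligands and 22 for receptors, among 18217 named genes on the array. Of these 56, 40 were bright enough to be tested, 25 ligands and 15 receptors, among 20203 genes and unnamed probes tested in all. Total RNA of the heart was labelled with Cy3 and hybridised to 8 single-colour Agilent arrays, 4 of hearts of male C57BL/6J mice that had gone 2 days with water but no food, and 4 of hearts of satiated males of that strain. All were 9 weeks old and were kept on the same pellet diet, CE-2, and the labels name no transgene, knockout or drug in either group. The labels number the hearts of each group but do not say whether each array held the RNA of 1 animal. Every p-value below therefore sets a difference only against the scatter of these 8 samples.

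Chemokines fall into CC, CXC, CX3C and XC families by the spacing of cysteines near the start of the protein, and act on receptors with 7 membrane-spanning segments that couple to inhibitory G proteins. Inflammatory chemokines are induced by signals such as NF-kB and interferon gamma and draw monocytes, neutrophils or activated lymphocytes, whereas homeostatic ones are made constantly and place lymphocytes and stem cells in their tissues. Atypical receptors (the Ackr genes) bind chemokines without that signalling and take them up, transport them or degrade them. In the heart, chemokines are best known for bringing in monocytes and neutrophils after injury, and Cxcl12 for its part in the growth of the coronary vessels.

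The 250 bases before the annotated start are shown for 4 of the genes that differed between the groups: Cxcl13, which had the largest increase of the tested members, Cxcl12, the ligand of Cxcr4, Cxcl9, an interferon target, and Ackr4, the atypical receptor that fell. They are RefSeq sequences on build GRCm38.p6, written 5′ to 3′ on the strand of the gene, and capitals mark matches to the motifs named after them.
Cxcl13 (chr5:95956689-95956938, plus strand): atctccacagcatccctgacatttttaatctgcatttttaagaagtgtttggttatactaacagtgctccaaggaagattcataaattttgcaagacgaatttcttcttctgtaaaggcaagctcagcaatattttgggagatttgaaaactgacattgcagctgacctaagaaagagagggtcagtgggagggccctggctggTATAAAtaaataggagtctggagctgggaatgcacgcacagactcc
Cxcl9 (chr5:92328080-92328329, minus strand): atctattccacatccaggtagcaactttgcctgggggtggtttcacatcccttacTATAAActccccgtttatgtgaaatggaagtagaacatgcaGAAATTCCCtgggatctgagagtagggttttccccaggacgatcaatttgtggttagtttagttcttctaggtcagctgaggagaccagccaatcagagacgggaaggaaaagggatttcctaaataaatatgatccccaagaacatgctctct
Cxcl12 (chr6:117168285-117168534, plus strand): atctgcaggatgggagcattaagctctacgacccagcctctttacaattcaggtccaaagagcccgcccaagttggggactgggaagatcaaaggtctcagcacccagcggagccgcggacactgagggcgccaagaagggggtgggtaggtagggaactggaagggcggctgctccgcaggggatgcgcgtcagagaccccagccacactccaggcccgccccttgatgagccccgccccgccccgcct
Ackr4 (chr9:104126644-104126893, minus strand): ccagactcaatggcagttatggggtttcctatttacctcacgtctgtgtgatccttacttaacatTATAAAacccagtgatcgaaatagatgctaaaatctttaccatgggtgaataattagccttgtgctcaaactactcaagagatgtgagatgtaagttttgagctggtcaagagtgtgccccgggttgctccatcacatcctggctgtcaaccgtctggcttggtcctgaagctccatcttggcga

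Both strands of these windows were searched for 4 short motifs. GGGNNTTTC, the first letters of a common NF-kB element, starts 154 bases before the Cxcl9 start, on the opposite strand, and is in 3.72% of all 32851 windows and in 6 of the 30 tested members with a RefSeq window. TATAAA, the TATA box, starts 46 bases before the start of Cxcl13, 195 before that of Cxcl9 and 185 before that of Ackr4, and is in 12.4% of all windows and in 11 of the 30 members. A member counted if any of its windows held the motif, so its share and that of single windows are not alike. The gamma-activated site TTCNNNGAA is in 7.02% of all windows and in 3 of the 30 members, among them Ccl17 and Cxcl14 of the 10 called members with a window. GTAAACA, bound by FoxO proteins, is in no member window, against 3.17% of all windows. No motif overlapped another in the windows shown, and that of Cxcl12 held none of the 4. Such matches describe letters only, and that of Ccl24 was not among the sequences used here.

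Intensities are given on a scale on which the probe at the 75th percentile of each array is 1000, and a log2 fold change is the mean log2 intensity of fasted minus that of satiated hearts. A gene was called when the moderated test of limma gave a Benjamini-Hochberg adjusted p under 0.05 over all 20203 genes and probes. Replicates 1 and 2 of both groups were on slide 1 and replicates 3 and 4 of both on slide 2. On slide 1, 66.7% to 68.9% of probes were well above background, against 54.4% to 55.6% on slide 2, where negative control spots were brighter (lowest median of an array 136, against a highest of 30.0 on slide 1). Fasted hearts correlated with each other at r = 0.971 to 0.991 over the tested genes and probes, and satiated hearts at r = 0.977 to 0.992. The third fasted heart stood apart for these genes: it was the lowest of the 4 fasted hearts in 23 of the 40 tested members (57.5%), against 30.3% of all genes and probes tested. Some results, though not all that shift with it, are therefore also given without it. The third satiated heart, on the same slide, was the lowest of its group in 18 of the 40 (45%, against 30.1%). Among the markers of cardiomyocytes, 8 of 8 were measured, with 1 called (Actc1, lower), and the summed marker signal of fasted and satiated hearts overlapped.

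Fasted hearts had more RNA for the B cell attractant Cxcl13, 10.2-fold, and for Ccl17 and the scavenger Ackr2, and less for Ccl24, Ccl21a, Ccl27a, Cxcl9, Cxcl12 and Cxcl14 and for the receptors Cx3cr1 and Ackr4. These are 11 of the 40 tested members (27.5%), against 20.2% of all genes and probes tested. 3 were higher in fasted hearts (7.5% of the members, against 9.82% of all), and 8 were lower (20%, against 10.3%). 7 of the 11 changed at least 2-fold (17.5% of the members, against 7.38% of all). In each of the 11 the 4 fasted hearts lay wholly to 1 side of the 4 satiated hearts; over all tested members that held for 14 of 40 (35%, against 27.6% of all), 5 of them higher in fasted hearts (13.3% of all) and 9 lower (14.3% of all). The members' median log2 fold change was 0.01 and that of all genes and probes -0.00, while the median size of the change, whatever its sign, was 0.47 for the members and 0.32 for all. Members were more often dim: 25 of 40 (62.5%) were well above background on all 8 arrays, against 15823 of 20203 genes and probes. The sizes of change were not compared at equal brightness. In bulk hearts, fewer cells of a type and less RNA per cell cannot be told apart.

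**Figure D1:**
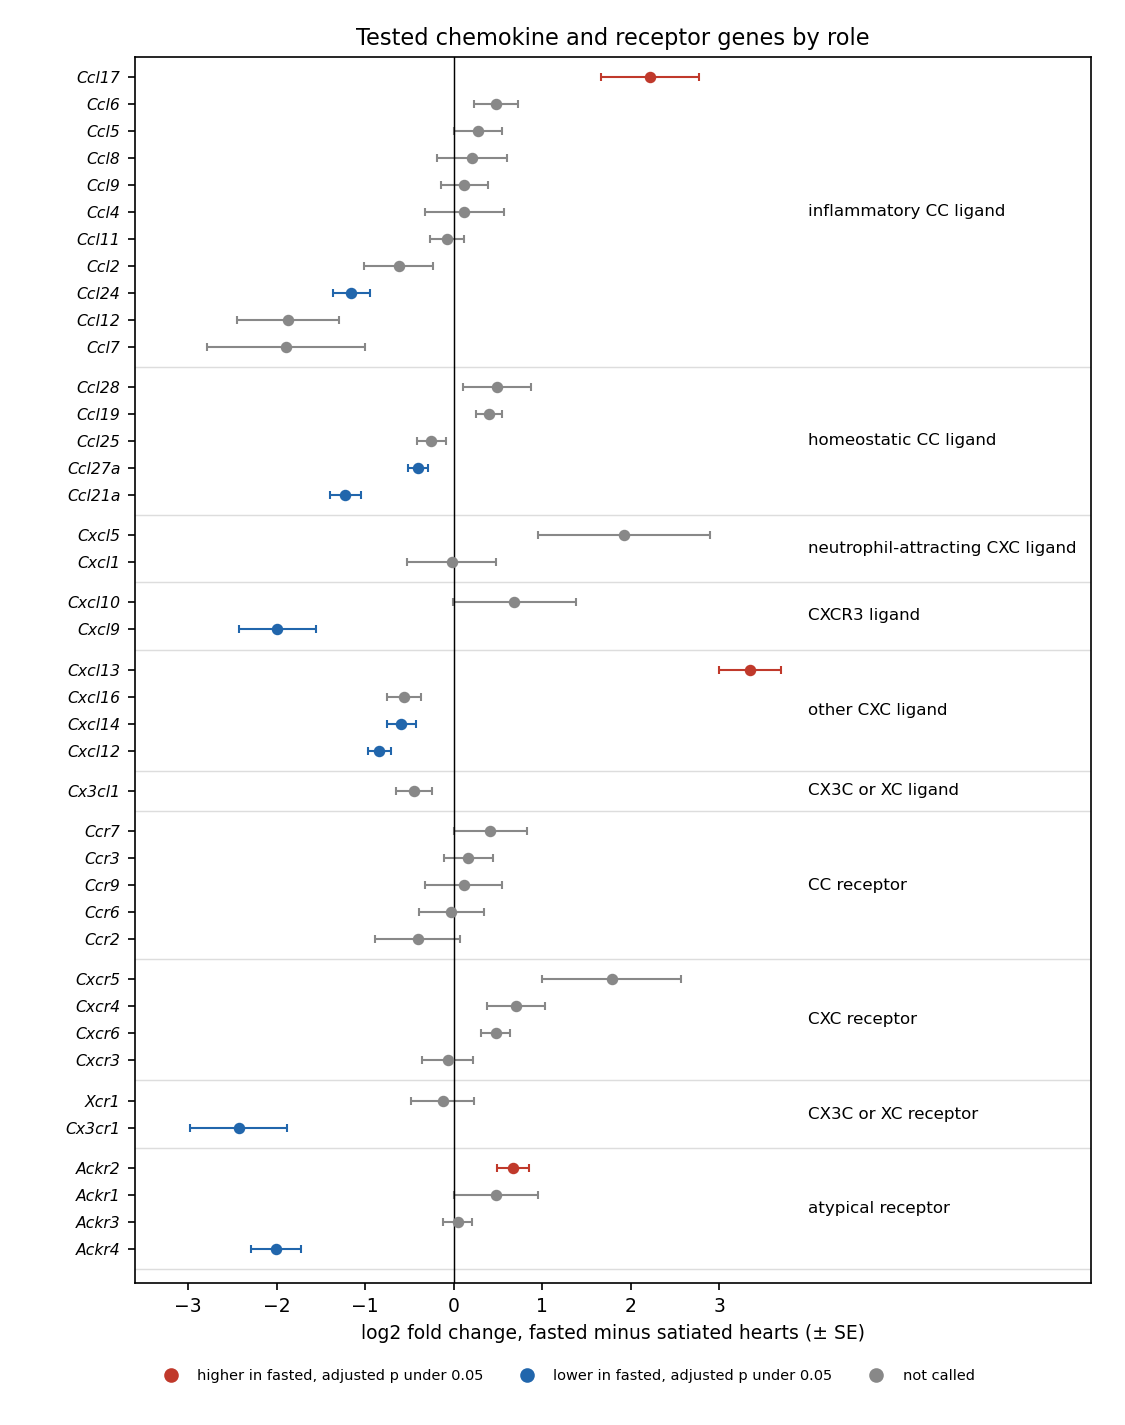
Log2 fold change (x axis, fasted minus satiated hearts, n = 4 each) with its standard error for the 40 tested genes, grouped by role; red points are called higher, blue called lower and grey not called. Called genes occur on both sides, from Cxcl13 at 3.34 to Cx3cr1 at -2.43. The CC receptors, the CXC receptors, the neutrophil-attracting CXC ligands and Cx3cl1 hold none.

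**Figure D2:**
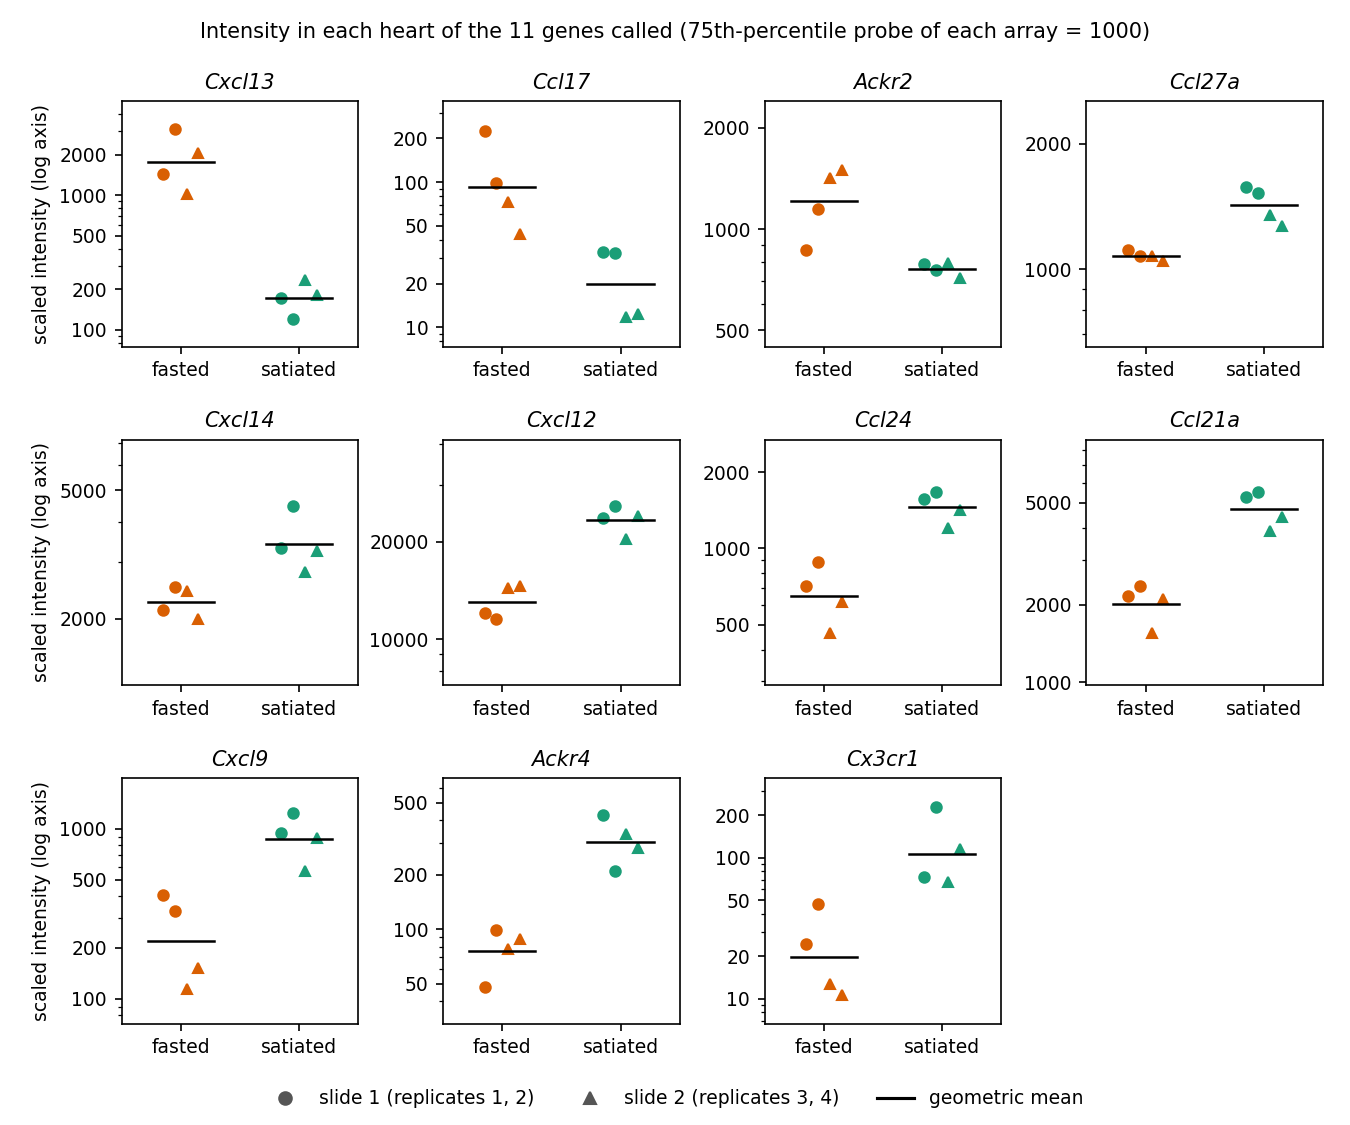
Scaled intensity (log axis, the probe at the 75th percentile of each array set to 1000) of the 11 called genes in each heart, with fasted hearts left of satiated hearts, circles for slide 1, triangles for slide 2 and a bar at the geometric mean. In each panel the 4 fasted hearts lie wholly above or wholly below the 4 satiated hearts, and those of Cxcl13 and Ackr4 are wide apart.

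Cxcl13 draws B cells and follicular helper T cells through the receptor Cxcr5. Its intensity was 1426, 3123, 1025 and 2060.1 in fasted hearts 1 to 4, against 172, 119.9, 235 and 182 in satiated hearts 1 to 4. The lowest fasted heart was thus well above the highest satiated heart. Its log2 fold change was 3.34 ± 0.35 (SE, n = 4 each; limma adjusted p = 0.00105), the largest increase among the tested members. It was 3.88 on slide 1 and 2.81 on slide 2, and 2.73 when the median spot signals were corrected for background by normexp. Cxcr5 was measured at 85.2, 130.4, 16.5 and 267 in fasted hearts, against 34.3, 39.8, 17.2 and 14.9 in satiated hearts. 3 fasted hearts lay above all satiated hearts, and the third fasted heart lay among them. Cxcr5 was well above background in 3 fasted and 2 satiated hearts, so the size of its change is uncertain. Its log2 fold change of 1.78 ± 0.79 was not called (limma adjusted p = 0.151), with a 95% interval of -0.02 to 3.59, whereas without the third fasted heart it was 2.56 (adjusted p = 0.0147). Of 3 tested B cell markers, Ms4a1 (the surface protein CD20) was higher in fasted hearts, by 1.55 ± 0.36 on the log2 scale (limma adjusted p = 0.0191), and Cd79b and Cd22 were not called. The summed intensity of these markers was 717 to 2071 in fasted hearts, against 469 to 716 in satiated hearts. Cd79b made up 65.6% to 84.6% of these sums. Without it the ranges overlapped, at 161 to 542 in fasted hearts, against 110 to 176 in satiated hearts. Cd79a, Pax5, Blk and Ighm had no tested probe. The part of B cells in the Cxcl13 and Cxcr5 values was not tested.

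Among the 11 tested inflammatory CC ligands, 1 was higher in fasted hearts, 1 was lower and 9 were not called. Over all genes and probes tested, 9.82% were higher and 10.3% were lower. Ccl17, which acts on Ccr4 of helper and regulatory T cells and is made mainly by dendritic cells, had 225, 99.0, 72.8 and 44.1 in fasted hearts, against 33.1, 32.3, 11.8 and 12.3 in satiated hearts. Every fasted heart exceeded every satiated heart, but within each group the hearts of slide 1 were brighter than those of slide 2. The log2 fold change was 2.21 ± 0.56 (SE, n = 4 each; limma adjusted p = 0.0262). It was 0.80 after normexp correction, with the call kept. The probe was well above background in 3 fasted and 2 satiated hearts, and the call was lost without the third satiated, the fourth satiated or the second fasted heart (limma adjusted p = 0.0666, 0.0715 and 0.0568). None of the 4 tested dendritic cell markers was called, and their summed intensity was 475 to 968 in fasted hearts, against 1115 to 1351 in satiated hearts. These ranges did not overlap, and 3 of the 4 (Zbtb46, Batf3 and Flt3) had an unadjusted p under 0.05. Flt3 was called, as lower, with the replicate number as a block (limma adjusted p = 0.0289). Siglech, Cd209a and Clec9a had no tested probe.

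Ccl24 (eotaxin-2), which draws eosinophils through Ccr3, was the inflammatory ligand that fell. It had 712, 887, 464 and 614 in fasted hearts, against 1562, 1673, 1207 and 1414 in satiated hearts. All fasted hearts lay below all satiated hearts, for a log2 fold change of -1.16 ± 0.21 (limma adjusted p = 0.00764), and a second probe of the gene gave -1.24 (adjusted p = 0.00389 over all kept probes). The other eotaxin tested, Ccl11, had a log2 fold change of -0.08 ± 0.20 and was not called, with a 95% interval of -0.52 to 0.37. Ccr3 itself had 0.17 ± 0.28 and was not called.

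The ligands of Ccr2, which bring monocytes into tissue, had negative fold changes that were not called. Ccl12 had 239, 143, 31.1 and 69.6 in fasted hearts, against 403, 329.9, 427 and 237 in satiated hearts. The first fasted heart lay just above the lowest satiated heart and the other fasted hearts lay below all of them. On the log2 scale the fold change was -1.88 ± 0.57 (limma adjusted p = 0.0523), and it was called when slide (adjusted p = 0.0188) or replicate number (adjusted p = 0.0484) entered the fit as a block. It was also called under quantile normalization, median scaling, the deposited ratios, every kept probe tested on its own and without the first fasted heart (limma adjusted p = 0.0239 to 0.0499). Under normexp correction it was -0.98 and called (adjusted p = 0.0231). Without the third fasted heart, the lowest for Ccl12, it was -1.35 ± 0.42 and not called (limma adjusted p = 0.0669). Ccl7 had 414, 76.0, 14.0 and 152 in fasted hearts, against 284, 509, 335 and 265 in satiated hearts. The first fasted heart lay within the satiated range and the other 3 below it, and the log2 fold change of -1.90 ± 0.89 was not called (limma adjusted p = 0.178). The fasted mean was 3.72-fold below the satiated mean with the third fasted heart and 2.0-fold below it without that heart, not called in either case (SE 0.55 on the log2 scale, limma adjusted p = 0.263). Ccl2, the main monocyte attractant, had -0.62 ± 0.39 (limma adjusted p = 0.308). Ccr2 itself had 129, 155, 31.1 and 119 in fasted hearts, against 103, 132, 163 and 102 in satiated hearts. The third fasted heart was the only one outside the satiated range on the low side, and the log2 fold change was -0.41 ± 0.48 with it and 0.12 ± 0.20 without it, not called in either case (limma adjusted p = 0.608 and 0.748).

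The remaining inflammatory CC ligands had log2 fold changes between 0.12 and 0.47 and none was called. Without the third fasted heart these were between 0.33 and 0.67, with none called (limma adjusted p = 0.0583 to 0.696). With all hearts, these ligands were Ccl6 (0.47 ± 0.25) and Ccl9 (0.12 ± 0.26), which act on Ccr1, Ccl5 (0.27 ± 0.27) and Ccl4 (0.12 ± 0.45), which draw T cells and macrophages, and Ccl8 (0.21 ± 0.40), a ligand of Ccr8 in the mouse. For 4 of these 5, all but Ccl4, the probe was well above background on all 8 arrays. Ccl4 reached that level on the 4 arrays of slide 1.

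Of further CC receptors, Ccr6, the receptor of Ccl20, had -0.03 ± 0.37, Ccr7 had 0.41 ± 0.41 and Ccr9, the receptor of Ccl25, had 0.11 ± 0.44 on the log2 scale, and these 3 were not called.

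Homeostatic CC ligands fell in 2 of 5 cases and rose in none, against 10.3% and 9.82% of all genes and probes. Ccl21a, which with Ccl19 leads dendritic cells and T cells through Ccr7 into lymphatic vessels and lymph nodes, had 2162, 2372, 1557 and 2101 in fasted hearts, against 5278, 5502, 3899 and 4422 in satiated hearts. The 2 groups were wide apart, with a log2 fold change of -1.22 ± 0.18 (SE, n = 4 each; limma adjusted p = 0.00308) that was -1.25 on slide 1 and -1.20 on slide 2. The probe cannot be taken as Ccl21a alone, since Ccl21b, Ccl21c and Ccl21d are near-identical copies. Ccl19 had 4641, 3538, 4146 and 3264 in fasted hearts, against 3255, 2922, 2583 and 3037 in satiated hearts. Fasted hearts were all above satiated hearts, by a narrow margin, and the log2 fold change of 0.39 ± 0.15 was not called (limma adjusted p = 0.0967). On a second kept probe of Ccl19 the groups overlapped, with 0.33 ± 0.21 (limma adjusted p = 0.313 over all kept probes). The difference in log2 fold change between Ccl21a and Ccl19 was not tested.

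Ackr4, which takes up and degrades Ccl19, Ccl21 and Ccl25, had 48.0, 98.3, 77.2 and 88.1 in fasted hearts, against 425, 210.3, 335 and 281 in satiated hearts. The highest fasted heart was well below the lowest satiated heart, and the log2 fold change was -2.01 ± 0.28 (SE, n = 4 each; limma adjusted p = 0.00281), or -1.04 after normexp correction. Ackr4 lies within the annotated span of Acad11, a gene of fatty acid breakdown. Ccr7, the signalling receptor of Ccl19 and Ccl21a, was well above background in 2 fasted and 2 satiated hearts. The 4 markers of lymphatic endothelium were all tested and none was called in limma (0 also at an unadjusted p under 0.05), with sums of 2971 to 5601 in fasted hearts, against 2104 to 5035 in satiated hearts. Lyve1, also among the macrophage markers, made up 86.0% to 93.0% of these sums. Without it they were 276 to 616 in fasted hearts, against 258 to 442 in satiated hearts. Ccl25 had a log2 fold change of -0.25 ± 0.17 and Ccl28, a mucosal ligand, 0.49 ± 0.38, and neither was called.

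Ccl27a, best known as a skin chemokine that acts on Ccr10, had 1112, 1079, 1079.6 and 1047 in fasted hearts, against 1577, 1527, 1351 and 1271 in satiated hearts. The fasted values were close together and all below the satiated ones. Its log2 fold change of -0.40 ± 0.11 was small (limma adjusted p = 0.0390), and the call was lost when any 1 of the 8 hearts was left out (adjusted p = 0.0532 to 0.107). The gene overlaps Il11ra1 and has the near-identical copy Ccl27b, so that its signal is uncertain.

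Cxcl12, the ligand of Cxcr4 and Ackr3 that retains stem cells and guides vessel growth, had 12013, 11532, 14378 and 14609 in fasted hearts, against 23642, 25844, 20389 and 23995 in satiated hearts. All fasted hearts were lower, and those of slide 1 were the lowest. That is a log2 fold change of -0.84 ± 0.13 (SE, n = 4 each; limma adjusted p = 0.00458); a second probe, placed on another RefSeq transcript, gave -0.83 (adjusted p = 0.00754 over all kept probes). It was -1.07 on slide 1 and -0.61 on slide 2. Cxcr4, the signalling receptor, had a log2 fold change of 0.70 ± 0.33 (limma adjusted p = 0.176), and its second kept probe gave -0.02. Ackr3, the atypical receptor that clears Cxcl12, had 11676, 8960.0, 14893 and 12491 in fasted hearts, against 11619, 11053, 10777 and 12355 in satiated hearts. Its groups overlapped, with a log2 fold change of 0.05 ± 0.16 and a 95% interval of -0.33 to 0.42.

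Cxcl14, a constantly made chemokine of epithelium and connective tissue, had 2125, 2516, 2446 and 1996 in fasted hearts, against 3324, 4473, 2787 and 3250.4 in satiated hearts. No fasted heart reached the lowest satiated heart, and the log2 fold change was -0.59 ± 0.17 (limma adjusted p = 0.0397). The call was lost when any heart but the third satiated one was left out (limma adjusted p = 0.0532 to 0.0941). Fibroblasts are a usual source of Cxcl12 and Cxcl14, and of 8 tested fibroblast markers 5 fell (Lum, Col3a1, Tcf21, Col1a1 and Col1a2) and 1 rose (Dcn). The shares over all genes and probes were 10.3% and 9.82%. Lum fell by 1.48 and Col3a1 by 2.56 on the log2 scale (limma adjusted p = 0.00137 and 0.00412), and Dcn rose by 0.56 (adjusted p = 0.0155). The summed marker signal was 242910 to 294555 in fasted hearts, against 253650 to 286957 in satiated hearts. Dcn made up 49.1% to 88.3% of these sums, and without it the ranges lay apart, at 34464 to 66936 in fasted hearts, against 95526 to 145975 in satiated hearts. The part of fibroblasts in the Cxcl12 and Cxcl14 values was not tested.

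Cxcl9 and Cxcl10, which are induced by interferon gamma and draw T cells and NK cells through Cxcr3, did not give the same call, and the difference between them was not tested. Cxcl9 had 409, 329.5, 114 and 152 in fasted hearts, against 949.9, 1238, 568 and 879 in satiated hearts. Every fasted heart was lower, those of slide 2 most of all, and the log2 fold change was -1.99 ± 0.43 (SE, n = 4 each; limma adjusted p = 0.0154). Cxcl10 had 679, 85.8, 147 and 65.6 in fasted hearts, against 61.3, 165, 91.7 and 90.3 in satiated hearts. The first fasted heart was far above the rest, and the log2 fold change of 0.69 ± 0.69 was not called (limma adjusted p = 0.541). Cxcr3 had 65.5, 97.8, 36.2 and 85.2 in fasted hearts, against 73.5, 68.1, 64.1 and 74.5 in satiated hearts. The groups overlapped, with a log2 fold change of -0.07 ± 0.29 and a 95% interval of -0.73 to 0.59. Without the third fasted heart it was 0.23 ± 0.16 and not called (limma adjusted p = 0.384). Of the 15 tested genes of the interferon gamma response, 3 fell and none rose, against 10.3% and 9.82% of all genes and probes. The median log2 fold change of the 15 was -0.39. Those that fell were the receptor chain Ifngr2 (-1.56 ± 0.27, limma adjusted p = 0.00685), the GTPase Gbp3 (-0.66 ± 0.17) and the immunoproteasome subunit Psmb8 (-0.39 ± 0.11). A block for replicate number gave 5 that fell and 1 that rose, against 16.7% and 15.4% of all genes and probes. Ifng itself had no tested probe, and none of 7 tested T and NK cell markers was called in limma (0 also at an unadjusted p under 0.05), with sums of 201 to 678 in fasted hearts, against 258 to 525 in satiated hearts. Cd8a, Cd8b1, Trac, Gzma, Gzmb, Prf1 and Ncr1 had no tested probe.

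Cx3cr1, the receptor of monocytes, resident macrophages and NK cells for Cx3cl1 (fractalkine), fell. It had 24.6, 46.7, 12.6 and 10.6 in fasted hearts, against 73.3, 229, 67.6 and 115 in satiated hearts. All fasted hearts were below all satiated hearts, and the 2 fasted hearts of slide 2 were not well above background. The log2 fold change was -2.43 ± 0.55 (SE, n = 4 each; limma adjusted p = 0.0174). It was -1.93 on slide 1, where all hearts were well above background, and -0.73 after normexp correction, and a second probe of the gene was too dim to be tested. Cx3cl1, which is anchored on endothelium, had a log2 fold change of -0.45 ± 0.20 (limma adjusted p = 0.159) and was called with the replicate number as a block (adjusted p = 0.0453). Of 15 tested macrophage and monocyte markers, 2 fell and 1 rose, against 10.3% and 9.82% of all genes and probes. Folr2 had -1.28 ± 0.24, Fcgr1 -0.99 ± 0.30 and Mertk 0.95 ± 0.20 on the log2 scale (limma adjusted p = 0.00888, 0.0490 and 0.0125). The summed marker signal was 93292 to 125660.0 in fasted hearts, against 77986 to 106329 in satiated hearts, so that the ranges overlapped. Ly6c2 made up 53.5% to 70.4% of these sums, and without it the ranges still overlapped, at 31503 to 41677 in fasted hearts, against 35551 to 38878 in satiated hearts. Fcgr1 lost its call under the replicate block (adjusted p = 0.0614). Cd68 had no tested probe, and the part of macrophages in the Cx3cr1 values was not tested.

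Cxcl16, a membrane-bound ligand of Cxcr6, had 694, 749, 443 and 613 in fasted hearts, against 918, 1099, 797 and 825 in satiated hearts. All fasted hearts lay below all satiated hearts. A log2 fold change of -0.56 ± 0.19 was not called (limma adjusted p = 0.0756), but it was with a block for slide (adjusted p = 0.0139) or for replicate number (adjusted p = 0.0196), under median scaling (0.0498) and with the mean of its kept probes (0.0375). On a second kept probe of Cxcl16 the groups overlapped, with -0.80 ± 0.40 (limma adjusted p = 0.197 over all kept probes). Cxcr6, found on T cells and NKT cells, had 125, 116, 103 and 102 in fasted hearts, against 96.7, 64.9, 93.8 and 69.2 in satiated hearts. Fasted hearts were all above satiated hearts, and the log2 fold change of 0.47 ± 0.17 was not called (limma adjusted p = 0.0824). Xcr1, a receptor of cross-presenting dendritic cells, had -0.13 ± 0.36 and was not called, and its ligand Xcl1 was too dim to be tested.

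**Figure D3:**
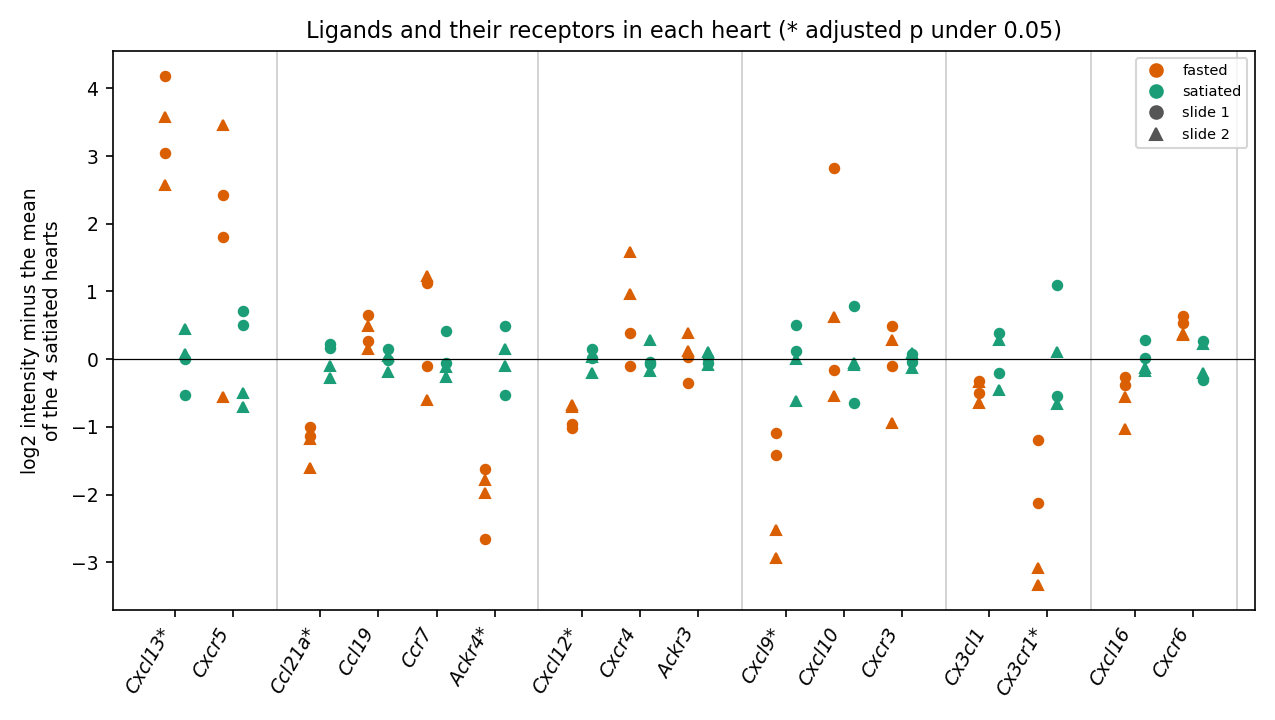
Log2 intensity of each heart minus the mean of the 4 satiated hearts (y axis) for ligands and the receptors that bind them, with fasted hearts (orange) left of satiated hearts (green) for each gene, circles for slide 1, triangles for slide 2 and an asterisk after called genes. Cxcl13 and 3 of 4 Cxcr5 points of fasted hearts lie above 1, while Ccl21a with Ackr4, Cxcl12, Cxcl9 and Cx3cr1 lie below 0 in all fasted hearts, and Ackr3 and Cxcr3 lie on both sides of it.

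Of the neutrophil-attracting CXC ligands, which act on Cxcr2, only Cxcl1 and Cxcl5 were bright enough to be tested, and neither was called. Cxcl1 had 238, 83.0, 54.0 and 223 in fasted hearts, against 80.1, 172, 145 and 127 in satiated hearts. The fasted hearts lay on both sides of the satiated ones, with a log2 fold change of -0.02 ± 0.50. Without the third fasted heart it was 0.38 ± 0.43 and not called (limma adjusted p = 0.612). Cxcl5 had 365, 50.1, 10.9 and 141 in fasted hearts, against 12.5, 21.1, 36.7 and 14.0 in satiated hearts. 3 fasted hearts were above all satiated hearts and the third was below them, with a log2 fold change of 1.92 ± 0.97 (limma adjusted p = 0.206) and of 2.84 without that heart (adjusted p = 0.0307). The Cxcl5 probe was well above background in 3 fasted hearts and 1 satiated heart. The order of the dimmer hearts and the size of the change are thus uncertain. Cxcr1 and Cxcr2, the receptors of neutrophils, were too dim to be tested. Of 6 tested neutrophil markers, 3 rose (9.82% of all genes and probes): Retnlg by 3.64 ± 0.32, S100a8 by 1.32 ± 0.34 and S100a9 by 1.25 ± 0.37 on the log2 scale (limma adjusted p = 0.000573, 0.0288 and 0.0489). Ltf (4.31 ± 1.47, limma adjusted p = 0.0745), Csf3r (0.03 ± 0.42) and Mpo (-0.12 ± 0.32) were not called. For S100a8 and S100a9 the groups overlapped. The third fasted heart (158 and 1405) lay below the third satiated heart (162 and 1592). S100a9 lost its call under the replicate block (adjusted p = 0.0684). The summed signal of the 6 markers was 1788 to 6619.9 in fasted hearts, against 1158 to 1877 in satiated hearts. S100a9 made up 60.0% to 84.8% of these sums. Without it the ranges lay apart, at 383 to 1894 in fasted hearts, against 203 to 285 in satiated hearts. Ly6g, Elane, Camp and Ngp had no tested probe.

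The 4 atypical receptors were all tested, and 1 rose, 1 fell and 2 were not called. Among all genes and probes, 9.82% rose and 10.3% fell. Ackr2, which degrades inflammatory CC chemokines, had 870.0, 1149, 1424 and 1501 in fasted hearts, against 788, 755, 795 and 716 in satiated hearts. All fasted hearts were higher, those of slide 2 most, while the satiated hearts were close together. The log2 fold change was 0.66 ± 0.18 (SE, n = 4 each; limma adjusted p = 0.0347), 0.37 on slide 1 and 0.95 on slide 2. The call was lost without any heart but the first fasted one (limma adjusted p = 0.0598 to 0.0919), under median scaling (0.0646) and with array weights (0.0991). Ackr1, a receptor of venules and red cells that binds many chemokines, had 0.47 ± 0.47 and was not called. Without the third fasted heart it was 0.93 ± 0.32, also not called (limma adjusted p = 0.0870).

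16 members were not tested, since their probes were well above background on fewer than 4 arrays. For 12 of them, Ccl1, Ccl22, Cxcl2, Cxcl3, Cxcl15, Xcl1, Ccr1, Ccr4, Ccr8, Ccr10, Cxcr1 and Cxcr2, no array reached that level. Cxcl17, a mucosal chemokine, had 263, 285, 17.3 and 145 in fasted hearts, against 5.08, 3.72, 29.7 and 12.8 in satiated hearts. It was well above background in 3 fasted hearts and no satiated heart, so that its mean was at least 3.99-fold higher in fasted hearts, although the third fasted heart lay within the satiated range. Ccl3, a ligand of Ccr1, had 35.1, 102, 131 and 51.1 in fasted hearts, against 19.6, 11.6, 30.8 and 24.9 in satiated hearts. All fasted hearts were higher, 3 of them well above background, which gives at least 2.36-fold higher in fasted hearts. Ccl20, the ligand of Ccr6, was well above background in 1 fasted heart only, at 200.3, and Ccr1l1 in 1 satiated heart only, at 56.9. These bounds set the mean of the fasted hearts against, on each satiated array, the higher of the dimmest signal well above background and the gene's own, and have no test. The fasted means of Cxcl17 and Ccl3 each take in a heart not well above background, so the bounds are not strict. In the alternative with all probes kept, neither Cxcl17 nor Ccl3 was called (limma adjusted p = 0.0769 and 0.0708).

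Chemokine genes lie in clusters. Chromosome 11 held 14 members, among them the monocyte and macrophage attractants of the CC family, and none of the 11 tested was called in limma (2, Ccl12 and Cxcl16, at an unadjusted p under 0.05). Chromosome 9 held 13 members, all of them receptors, with 3 of 9 tested called (Ackr2, Ackr4 and Cx3cr1), and chromosome 5 held 9, with 3 of 6 called (Ccl24, Cxcl9 and Cxcl13). These small counts have no test and stand beside 20.2% of all genes and probes called.

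Of 25 tested genes that handle chemokines or carry their signal inside the cell, 2 rose and 2 fell. That stands against 9.82% and 10.3% of all genes and probes. The median log2 fold change of the 25 was 0.01. Grk5, a kinase that switches off activated receptors, rose by 0.85 ± 0.17 (limma adjusted p = 0.0104), and Gng2, a G protein subunit, rose by 0.51 ± 0.12 (adjusted p = 0.0249). Gnai2, the inhibitory G protein that most chemokine receptors use, fell by 0.66 ± 0.13 (limma adjusted p = 0.0126), and Cd74, the receptor of the chemokine-like Mif and invariant chain of MHC class II, fell by 0.88 ± 0.24 (adjusted p = 0.0325). A block for replicate number gave 4 that rose and 3 that fell, against 15.4% and 16.7% of all genes and probes. Of 19 tested genes of NF-kB and its targets, 3 rose and 1 fell, against 9.82% and 10.3% of all genes and probes. Those that rose were Birc3 (0.88 ± 0.16, limma adjusted p = 0.00790), Nfkbia (1.14 ± 0.32) and Tnip1 (0.55 ± 0.16). The macrophage growth factor Csf1 fell by 0.90 ± 0.27. Nfkbia and Tnip1 lost their call under the replicate block (limma adjusted p = 0.0501 and 0.0531). Birc3 blocks cell death, and Nfkbia and Tnip1 restrain NF-kB signalling. Tnf, Il6, Nfkb1 and Rel had no tested probe.

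The slides were compared gene by gene, since each held 2 hearts of each group. All 11 called members kept their sign on both slides, and 28 of the 40 tested members did (70%), against 81.1% of all genes and probes. The members' median log2 fold change was 0.19 on slide 1 and -0.19 on slide 2. In the limma test of the difference between slides no member and no gene was called (0 of 20203, with 518 at an unadjusted p under 0.05, or 2.56%), and 5 of the 40 members had an unadjusted p under 0.05: Ccl12, Cxcl12, Ccr3, Cxcr4 and Ackr2. With slide as a block, 13 members were called (32.5%, against 35.5% of all genes and probes), 3 higher (7.5%, against 17.1%) and 10 lower (25%, against 18.4%), and Ccl12 and Cxcl16 were those added. With the replicate number as a block, 3 were higher and 11 lower, against 15.4% and 16.7% of all genes and probes (32.1% in either direction), with Ccl12, Cxcl16 and Cx3cl1 added.

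**Figure D4:**
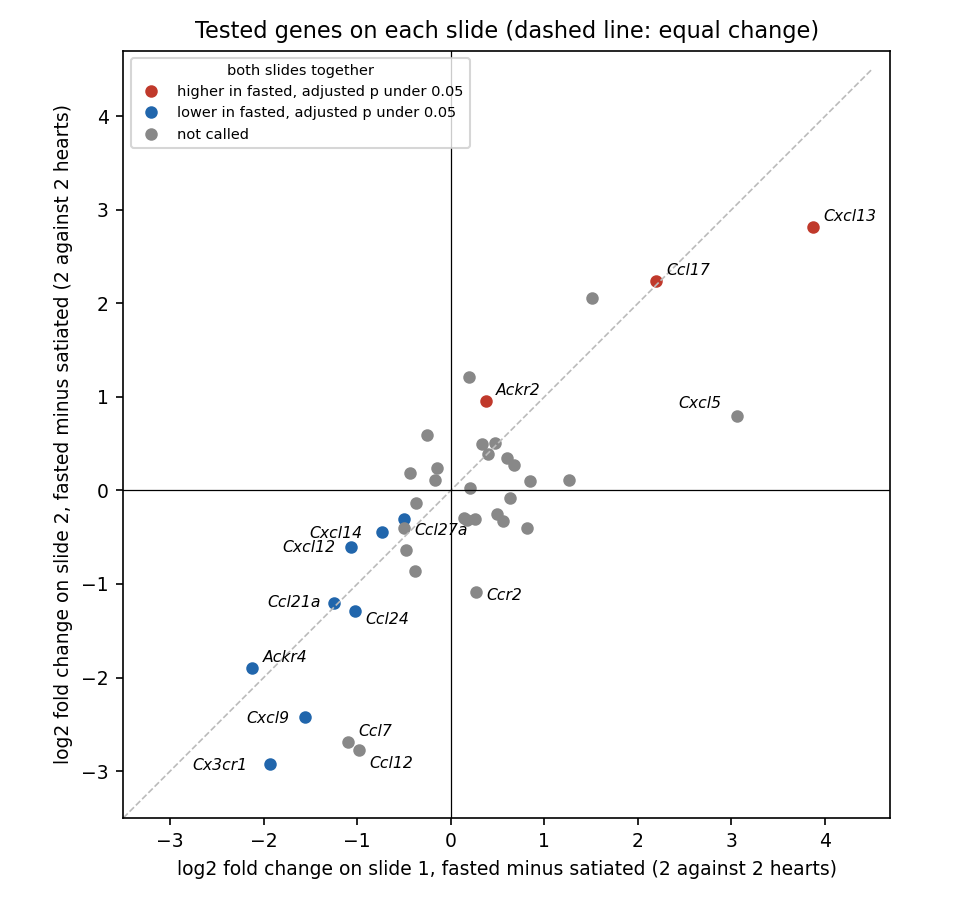
Log2 fold change (fasted minus satiated, 2 against 2 hearts) on slide 1 (x axis) and slide 2 (y axis) of the 40 tested members, red and blue where called over both slides and grey where not; the dashed line marks equal change. The called members lie in the quadrants where both slides have 1 sign, while Ccr2 is above 0 on slide 1 and at -1.09 on slide 2.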

How the data were processed

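Hearts of 4 fasted and 4 satiated mice were measured on single-colour Agilent arrays and grouped by their titles. Per the file headers, the deposited intensities were made by Feature Extraction 10.5.1.1 (slide 1) and 10.7.3.1 (slide 2), which subtracted background and detrended each array; the submitters' processing notes name Agilent Feature Extraction 9.1. The authors also deposited a table of linear ratios, with no account of its making in those headers or labels. Over the 20734 probes well above background on all 8 arrays, each ratio equalled the processed intensity times 1 factor per array, divided by the probe's median, so its scale, centring and direction are known there, and the centring of dimmer probes is unknown. Its column medians were 0.888, 0.861, 1.02 and 0.960 for fasted replicates 1 to 4, and 0.876, 0.901, 0.954 and 0.980 for satiated replicates 1 to 4.

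Control spots and 783 outlier spots were left out, log2 processed intensities of a probe's spots were averaged, and each array's 75th percentile was subtracted. Probes were named through unversioned RefSeq accessions (26690 of 41174 matched), kept where well above background on at least 4 of 8 arrays (26480), and the brightest kept probe stood for a gene. Groups were compared with limma 3.58.1 in R 4.3.3 (lmFit and eBayes, two-sided, Benjamini-Hochberg, adjusted p under 0.05). No probe was saturated, and the number of arrays limits the precision. In simulated data of 20203 genes, 200 were changed, 50 at each size. Of those changed by 0.5, 1, 2 and 3 on the log2 scale, 4%, 24%, 78% and 88% were recovered, with 5 false among 102 calls. The hearts themselves gave 4073 calls, so these rates do not give the share of changes recovered there. Alternatives were blocks for slide and replicate number, other scalings and filters, the deposited ratios, array weights, single slides and leaving out each heart, and, chosen after seeing the data, normexp correction of median spot signals.

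The members and gene lists were chosen with earlier results of these data known. 1 gene that meets the rule and 2 listed genes were in the fit but are not reported here, and no count of members or list genes holds them. Members were given by heart if called, not overlapping between groups, called with slide as a block, or detected throughout in 1 group only; heart values of Cxcr5, Cxcl5, Cxcl10, Ackr3, Cxcl17 and Ccl3 were added after they were seen. Up to 4 called genes of each pathway list were named by smallest p. Same-numbered hearts of the groups deviated together (r = 0.439, 0.475, 0.331 and 0.493, all over 0.1), and so did other hearts of a slide (r = 0.291 to 0.522). Within-slide differences between hearts correlated between the groups at r = -0.105 on slide 1 and 0.052 on slide 2, neither over 0.1. The same number thus showed no tie over that cut beyond the shared slide, and the labels tie the numbers to no shared source.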

Additional observations from a re-analysis of the deposited data

Results flagged for a closer look

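1 of the 80 groups of 4 hearts examined over the 40 tested members held a heart far from the other 3 by Dixon's test at the 95% level, and chance alone flags about 1 group in 20. For Ccr2 the third fasted heart had an intensity of 31.1, against 119 to 155 in the other fasted hearts. On the log2 scale, on which the test was made, the gap was 0.837 of the group's whole range. Ccr2 changed sign without this heart and was not called with or without it (log2 fold change -0.41 with it and 0.12 without it).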

How the results depend on the processing

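Counts over all genes and probes (4073 called) moved with slide as a block (7177), with all probes kept (2225), on slide 1 alone (1883) and on slide 2 alone (1, with 5333 at an unadjusted p under 0.05), and ranged between 2495 and 3690 when 1 heart was left out. Members higher in fasted hearts (3) were 1 with all probes kept, 7 with array weights and 0 on slide 2 alone, and 1 to 4 when 1 heart was left out. Members lower (8) were 4 on slide 1 alone and 0 on slide 2 alone, where 2 hearts stood against 2, and 6 to 7 when 1 heart was left out. With the replicate number as a block, 6486 genes and probes, 3 higher members and 11 lower members were called; Ccl12, Cxcl16 and Cx3cl1 were added, and no other call of a member described here changed. The cause of these shifts was not tested, beyond the fewer hearts of the single slides. No called result changed sign under any alternative tried. Over the 11 called members, Cxcl13, Ccl24, Ccl21a, Cxcl9 and Cxcl12 lost their call on slide 2 alone and under no other alternative tried, and Ackr4 and Cx3cr1 on either slide alone; Ccl17, Ccl27a, Cxcl14 and Ackr2 lost theirs when some single hearts were left out and with all probes kept, and Ackr2 also under normexp, median scaling, the deposited ratios and array weights. With array weights, Ccl6, Ccl19, Cxcl5, Cxcr5 and Cxcr6 were added to the higher members and Ccl25 to the lower. Among the listed genes, Nfkbia, Tnip1, Fcgr1 and S100a9 lost their call with the replicate number as a block. Other scalings moved the median log2 fold change of all genes by less than 0.1. Signal over background limits the dim genes: 16 members were not tested in the main fit and 25 of the 40 tested were well above background on all 8 arrays.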

Other observations

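The marker lists not set beside a chemokine gene showed few calls. None of 8 endothelial markers, 5 adipocyte markers, 3 red blood cell markers and 6 platelet markers was called at an adjusted p under 0.05 in limma, with 1, 2, 0 and 1 of them at an unadjusted p under 0.05. Platelet Pf4, itself a CXC chemokine under another name, had a log2 fold change of -0.66 ± 0.20 (SE, n = 4 each; limma adjusted p = 0.0515), and a block for replicate number led to its call (adjusted p = 0.0261) and to those of endothelial Vwf and Pecam1 (0.0422 and 0.0206). Among 8 pericyte and smooth muscle markers, Acta2 fell by 0.50 on the log2 scale, among 5 mast cell markers Fcer1a rose by 0.64, and among 5 mesothelial markers Upk1b rose by 1.02 (limma adjusted p = 0.0292, 0.0292 and 0.0131). The platelet markers other than Pf4 had log2 fold changes between 0.68 and 1.36, and their summed signal with Pf4 was 7685 to 12473 in fasted hearts, against 10203 to 19222 in satiated hearts.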
